A study of Mus musculus with 24 samples.

Results

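Gas5, Snhg1, Snhg3, Snhg5, Snhg6, Snhg8 and Snhg12 are noncoding snoRNA host genes, and their protein-protected sites (PPSs) in MEL cells are described here. A PPS was counted when it overlapped the annotated body of a member by at least 1 nt on the same strand. Of 460777 PPSs in the 3 deposited lists, 215 met this rule, and 193 of them remained after the 20 to 40 nt length class of ribosome-sized sites was left out (356432 PPSs in all lists after the same step). No PPS of this set lay on the opposite strand of any of the 7 genes on any day. All following values leave out the 20 to 40 nt class unless they say otherwise.

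Small nucleolar RNAs (snoRNAs) guide the chemical modification and processing of ribosomal and other RNAs, and in mammals most of them are cut out of the introns of longer host transcripts. Box C/D snoRNAs bind fibrillarin, Nop56, Nop58 and Snu13 and direct ribose methylation, whereas box H/ACA snoRNAs bind dyskerin, Nop10, Nhp2 and Gar1 and direct pseudouridylation. The host genes described here code for no known conserved protein. Spliced RNAs of such host genes can be read by ribosomes to a short extent and removed by nonsense-mediated decay, which was not tested here. Gas5, for growth arrest specific 5, was named for its accumulation in arrested cells, and its transcript belongs, like those of ribosomal proteins, to the messages with a 5′ terminal oligopyrimidine tract.

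MEL cells come from a mouse erythroleukemia and differentiate along the erythroid path when DMSO is added. The lists covered untreated cells (day 0) and cells grown with 2% DMSO for 2 days (day 2) or 4 days (day 4), with 2 replicates a day, and all cells were crosslinked with formaldehyde. In protein interaction profile sequencing (PIP-seq), a lysate was digested with a nuclease specific to single-stranded RNA (ssRNase) or to double-stranded RNA (dsRNase), either before or after its proteins were removed. RNA that was enriched in the digest with proteins present over the digest after their removal was called a PPS. The 24 libraries thus made 12 call sets, 1 for each day, nuclease and replicate, and 6 cultures. Each deposited PPS names the call sets merged into it but has only 1 start and 1 end, so that call sets that share a PPS also share its extent, and the spread between replicates is understated. Read depth is unknown from the lists. No measure of RNA level was used, so that a lower amount of a host RNA and a lower protection of it cannot be told apart. Among erythroid markers, PPSs covered 20.3% of the exonic bases of Hba-a1, an alpha globin gene, at day 0 and 78.97% at day 4 (mean of 2 replicates), and 5.61% and 60.9% of those of Hbb-bs, a beta globin gene. An exonic PPS was found in 0 of 5 lymphoid, 0 of 5 myeloid and 2 of 3 megakaryocytic markers.

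The 7 genes lie on 5 mouse chromosomes (mm10, gene models of GENCODE). Gas5 covers chr1:161034422-161038539 on the plus strand with 9 annotated snoRNA loci, Snhg1 covers chr19:8723475-8726443 on the plus strand with 8, and Snhg12 covers chr4:132308623-132311024 on the plus strand with 4. Snhg3 (chr4:132348014-132353686, minus strand) and Snhg5 (chr9:88521050-88522929, minus strand) hold 2 each. Snhg6 (chr1:9941959-9944118, minus strand) and Snhg8 (chr3:123507552-123508404, minus strand) hold 1 each. Of these 27 loci, 20 carry a C/D name, 6 an H/ACA name, and 1 is listed as Mir5117, a snoRNA gene of Gas5 that no RefSeq snoRNA overlapped. Where GENCODE gives only a predicted-gene symbol, the RefSeq product at the same position is added to the name.

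The snoRNAs that the results turn on are shown 5′ to 3′ as read from the GRCm38 genome. In the box C/D RNAs, capitals mark TGATGA (box C) within the first 20 bases and CTGA (box D) within the last 15 bases. Of the 27 loci, 16 held both motifs at these places, and of all 1529 annotated loci 308 did (20.1%). Snord78 and Snord22 matched in box D alone. In the box H/ACA RNAs, capitals mark the ANANNA nearest the middle and the ACA that ends 3 bases before the 3′ end, and Snora44 lacked this ACA at its annotated end. Only the transcribed strand was searched, and the motifs can overlap others in the same RNA.
Snord47, in Gas5: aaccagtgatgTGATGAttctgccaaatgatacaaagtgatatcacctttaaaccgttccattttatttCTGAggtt
Snord78, in Gas5: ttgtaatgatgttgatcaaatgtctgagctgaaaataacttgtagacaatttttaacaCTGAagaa
Gm24452 (SNORD27), in Snhg1: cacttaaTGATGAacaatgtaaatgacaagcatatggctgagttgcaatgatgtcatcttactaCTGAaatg
Snord22, in Snhg1: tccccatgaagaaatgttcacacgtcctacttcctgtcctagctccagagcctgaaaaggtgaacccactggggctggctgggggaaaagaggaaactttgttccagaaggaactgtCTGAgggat
Snord50a, in Snhg5: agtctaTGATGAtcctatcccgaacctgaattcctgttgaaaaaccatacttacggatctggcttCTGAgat
Snord50b, in Snhg5: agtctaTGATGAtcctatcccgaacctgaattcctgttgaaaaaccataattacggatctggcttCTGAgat
Snord87, in Snhg6: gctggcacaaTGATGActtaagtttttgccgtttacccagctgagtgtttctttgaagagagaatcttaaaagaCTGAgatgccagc
Snord99, in Snhg12: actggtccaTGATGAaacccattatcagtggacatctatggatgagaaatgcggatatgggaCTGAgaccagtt
Snora24, in Snhg8: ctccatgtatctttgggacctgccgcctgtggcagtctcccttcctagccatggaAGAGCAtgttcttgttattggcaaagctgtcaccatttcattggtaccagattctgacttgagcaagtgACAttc
Snora44, in Snhg12: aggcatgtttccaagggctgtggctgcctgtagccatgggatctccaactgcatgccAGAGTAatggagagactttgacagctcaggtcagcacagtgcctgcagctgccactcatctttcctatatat
Snora73a, in Snhg3: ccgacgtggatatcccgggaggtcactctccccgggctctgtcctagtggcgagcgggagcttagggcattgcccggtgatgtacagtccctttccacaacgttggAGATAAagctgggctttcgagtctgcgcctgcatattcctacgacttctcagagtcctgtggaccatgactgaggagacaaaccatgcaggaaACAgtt
Snora73b, in Snhg3: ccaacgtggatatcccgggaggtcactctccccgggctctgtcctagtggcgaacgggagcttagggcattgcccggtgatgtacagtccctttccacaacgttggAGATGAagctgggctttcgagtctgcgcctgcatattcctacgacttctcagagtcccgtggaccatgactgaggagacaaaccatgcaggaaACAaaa

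The number of PPSs in the 7 genes was 62 at day 0, 72 on the second time point (day 2) and 59 on the last (day 4). A PPS was placed on a snoRNA if it touched one, otherwise in an exon if it touched one, and otherwise in an intron. Of the 193 PPSs, 72 lay on a snoRNA (37.3%, Wilson 95% interval 30.8 to 44.3), 79 in an exon (40.9%, 34.2 to 48.0) and 42 in an intron (21.8%, 16.5 to 28.1). These intervals cover counting error only, and PPSs of 1 gene are not independent. Gas5 held the most, with 55 PPSs over the 3 days, followed by Snhg1 with 33, Snhg12 with 32, Snhg6 with 25, Snhg5 with 22, Snhg3 with 16 and Snhg8 with 10. The share on snoRNAs ran from 24 of 33 PPSs in Snhg1 to 0 of 16 in Snhg3.

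**Figure D1:**
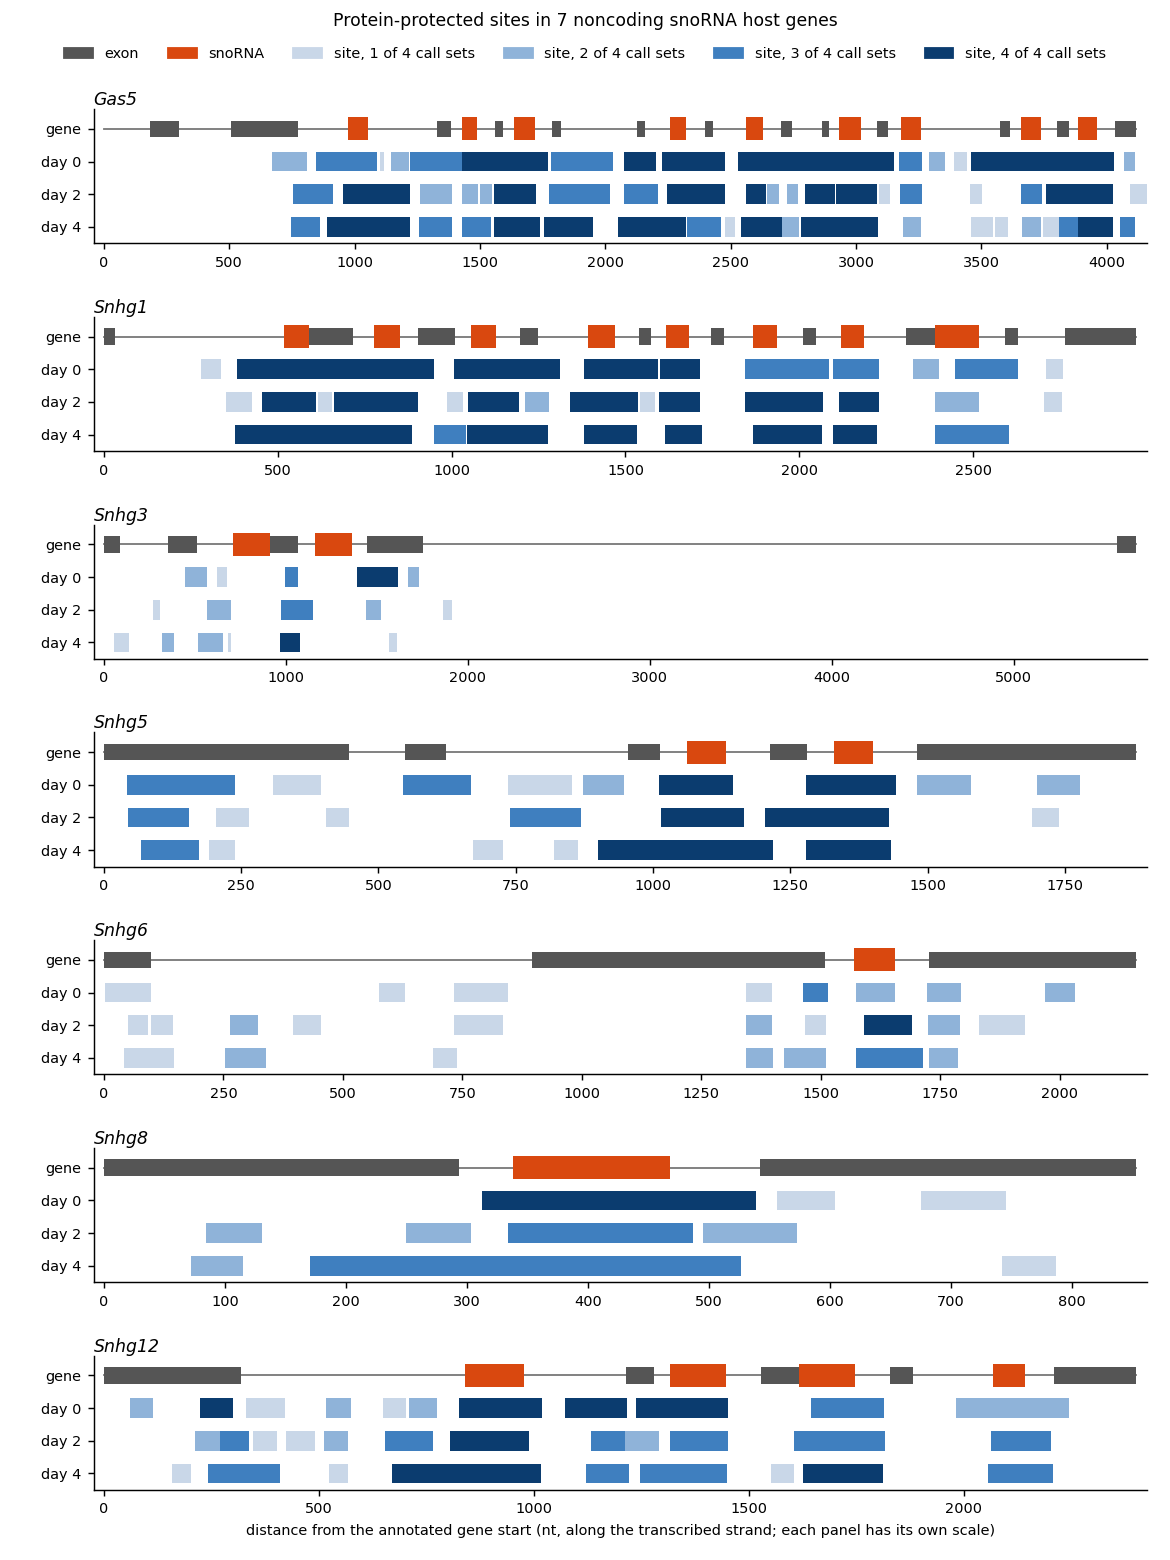
Maps of the 7 genes by distance from the annotated gene start (nt), with exons in grey, snoRNAs in orange and PPSs of day 0, day 2 and day 4 in blue, darker where more of the 4 call sets of a day (2 nucleases by 2 replicates) contributed. Dark PPSs lie over the snoRNAs of Gas5, Snhg1, Snhg5 and Snhg12, while the snoRNAs of Snhg3 (Snora73a and Snora73b) have none over them.

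PPSs on snoRNAs stood out from the others by their support. Of the 72, 71 held calls of both replicates (98.6%, Wilson 95% interval 92.5 to 99.8), against 50 of 79 in exons (63.3%, 52.3 to 73.1) and 11 of 42 in introns (26.2%, 15.3 to 41.1). In all lists 32.5% of PPSs held both replicates. All 4 call sets of a day met in 47 of the 72 snoRNA PPSs (65.3%), in 7 exonic PPSs (8.86%) and in 0 intronic ones, and in 1.65% of PPSs of all lists. The median length was 181.5 nt on snoRNAs, 70 nt in exons and 57.5 nt in introns, beside 61 nt in all lists. Since merging joins calls, a longer PPS has more chances to hold several call sets. The placing rule also favours length, because a longer PPS is more likely to touch a snoRNA and is then counted there. The differences in length and support are thus partly built in, and the part of length in them was not tested.

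The highest score of each gene, which the authors computed and which appears summed over merged calls, fell on a snoRNA PPS in 6 of the 7 genes. The Gas5 PPS over Snord47 and Gm25789 (SNORD81) at day 0 scored 222.68, the 7th highest of its day's list, and merged 17 calls over 570 nt. The Snhg1 PPS over Gm25855 (SNORD25) and Gm25894 (SNORD26) at day 4 scored 160.27 and ranked 6th in its list, with 509 nt and 11 calls. Snhg12 reached 73.71 on Snord99 at day 2, Snhg5 59.46 on Snord50b at day 4, Snhg8 54.43 on Snora24 at day 4 and Snhg6 38.47 on Snord87 at day 2. Snhg3 was the exception, since its highest score, 69.02 at day 0, belonged to a 222-nt PPS over its next-to-last exonic block and no snoRNA.

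Nearly every embedded snoRNA was covered throughout the time course. A PPS touched 25 of the 27 loci on each of the 3 days, and 17 loci lay wholly inside PPSs in both replicates of every day. Of 324 combinations of a locus and a call set, 270 held a PPS (83.3%). In 13 loci all 12 call sets contributed, in 6 loci 10 or 11 did, in 6 loci fewer than 10 did, and 2 loci had none. A call set counts for a locus when any of its calls was merged into a PPS on it, even if that call lay off the snoRNA. The counts by replicate and by call set, here and for the single loci below, are thus upper limits.

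**Figure D2:**
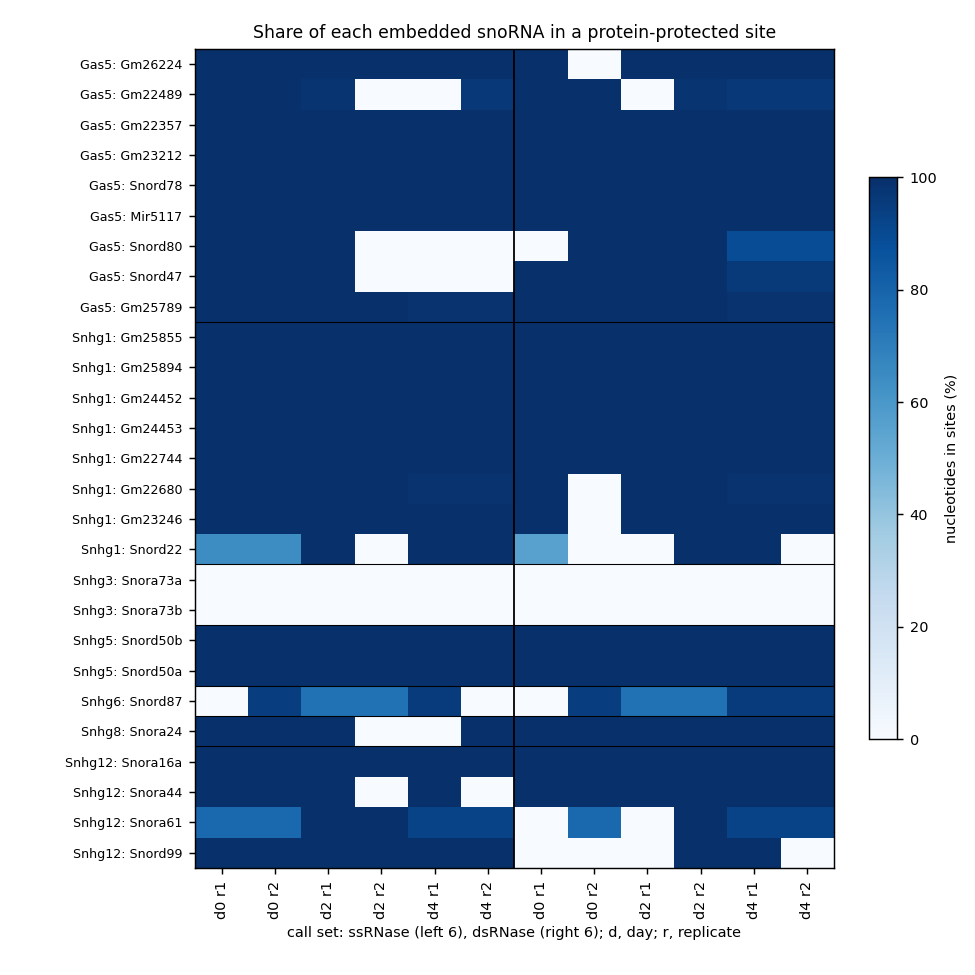
Percent of nucleotides of each of the 27 embedded snoRNAs that lay in a PPS, by call set (columns: ssRNase on the left, dsRNase on the right, with day and replicate), grouped by host gene. Rows of Snhg5 are full in 12 of 12 call sets, rows of Snhg3 are empty in 12 of 12, and gaps elsewhere mark call sets without a PPS on that snoRNA.

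In Gas5, all 9 snoRNA loci carried a PPS on every day. Gm22357 (SNORD24 in RefSeq), Gm23212 (SNORD44), Snord78, Mir5117 and Gm25789 were supported by 12 of 12 call sets. Snord80 and Snord47 were the least evenly supported loci of the gene. Their ssRNase calls were present in 2 of 2 replicates at day 0, in 1 of 2 at day 2 and in 0 of 2 at day 4. The dsRNase calls were present in 2 of 2 replicates on all 3 days on Snord47, and on Snord80 in 1 of 2 at day 0 and in 2 of 2 at day 2 and day 4. At day 0, Snord47 shared its long PPS with Gm25789, so that which of the merged ssRNase calls lay on Snord47 is not known for that day.

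In Snhg1, PPSs covered 8 of 8 C/D loci on every day. Gm25855, Gm25894, Gm24452 (SNORD27), Gm24453 (SNORD28) and Gm22744 (SNORD29) were supported by 12 of 12 call sets, and Gm22680 (SNORD30) and Gm23246 (SNORD31) by 11. Snord22, the longest C/D RNA of the set at 126 nt, was the exception. At day 0 separate PPSs covered its ends and 64.3% of its bases in both replicates, and at day 2 and day 4 a PPS spanned 100% of it. Only 3 of 6 dsRNase call sets held a PPS there, against 5 of 6 ssRNase call sets.

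Snhg5 carries the pair Snord50a and Snord50b, which were identical at 71 of 72 positions (98.6%). Both lay wholly inside a PPS in 12 of 12 call sets. Because the authors kept reads with several alignments, calls on these 2 near-identical RNAs cannot be assigned to either with certainty. Exact copies of the first 30 bases of each occurred at 5 places in the genome, the highest number among the 27 loci.

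In Snhg12, 3 H/ACA RNAs and 1 C/D RNA carried PPSs on every day, Snora16a in 12 of 12 call sets. Snora44 had support in 6 of 6 dsRNase and 4 of 6 ssRNase call sets, while Snora61 had the reverse, with 4 dsRNase and 6 ssRNase call sets. Snord99 differed most between nucleases, with a PPS in 6 of 6 ssRNase but 2 of 6 dsRNase call sets. Snora24, the H/ACA RNA of Snhg8, was covered in 6 of 6 dsRNase and 4 of 6 ssRNase call sets, and wherever it was covered the PPS spanned all 130 nt. Snord87 of Snhg6 had no PPS in day 0 replicate 1 with either nuclease. In day 0 replicate 2 the PPS covered 94.3% of it, at day 2 74.7% in both replicates, and at day 4 95.4% in both replicates.

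Snhg3 stood apart. Neither Snora73a nor Snora73b, the U17 RNAs, which act in the processing of ribosomal RNA, was touched by a PPS of any length in any call set. Depending on the day, the nearest PPS on each side lay 9 to 33 nt upstream and 58 to 84 nt downstream of Snora73a. For Snora73b these distances were 11 to 94 nt upstream and 28 to 199 nt downstream. The 2 RNAs were identical at 198 of 205 positions (96.6%). Exact copies of their first, middle and last 30 bases occurred at 1 or 2 places in the genome. The authors kept reads with up to 10 alignments and allowed mismatches. Copies with mismatches were not counted here, so that the counts of exact copies cannot be set against that limit. Whether the structure-only libraries were high at these RNAs was not tested, since the lists hold no read counts.

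Across the set, coverage of single snoRNAs changed little between day 0 and day 4, as most were full on both days. Snord22, Snord87 and Snora61 (3 of the 25 loci with a PPS) were higher in both day 4 replicates than in both day 0 replicates, against 20.5% of the 322 snoRNA loci with a PPS anywhere in the genome. Gm22489 (SNORD75), Snord80, Snord47, Gm25789 and Gm22680 (5 of the 25) were lower, against 31.7% of those loci. The 5 lower values still lay between 88.9% and 98.7% at day 4. The counts do not exceed the background in either direction.

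The ends of PPSs that lay on exactly 1 snoRNA (68 PPSs) were set against the ends of that snoRNA. With positions counted along the transcribed strand, the PPSs began at a median offset of -19 nt from the snoRNA start (quartiles -65 and -2.75) and ended at a median offset of 47 nt from its end (quartiles 17.25 and 71). In 55 of the 68 the whole snoRNA was inside. The flank on the 3′ side was the longer in 43 of 68 (63.2%, Wilson 95% interval 51.4 to 73.7). In protein-coding hosts the same share was 372 of 636 (58.5%, 54.6 to 62.3), with median offsets of -1 nt at the start (quartiles -14 and 7) and 4 nt at the end (quartiles -1.25 and 24). In other noncoding hosts it was 43 of 99 (43.4%, 34.1 to 53.3), with median offsets of -6 nt at the start and 5 nt at the end. These intervals overlap that of the 7 genes, and PPSs of 1 snoRNA on several days are not independent. By their medians, the flanks were longer in the 7 genes than in either kind of host.

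In 7 of the 68, both ends of the PPS lay within 5 nt of the snoRNA ends. They lay on Gm22489, Snord80, Snord47 (day 2 and day 4), Snord22, Snord87 (day 0) and Snora44, and 5 of the 7 were PPSs of day 2. The PPSs of day 2 are shown for 4 snoRNAs, with the bases of the snoRNA in capitals and the flanks in lower case, because they show how closely some sites follow the mature RNA. That on Snord78 (chr1:161036984-161037061, plus strand) starts on the first base of the snoRNA and runs 12 nt past its end.
Site on Snord47, chr1:161038080-161038161, plus strand: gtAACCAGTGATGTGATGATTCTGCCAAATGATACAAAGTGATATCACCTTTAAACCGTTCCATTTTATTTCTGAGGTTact
Site on Snord78, chr1:161036984-161037061, plus strand: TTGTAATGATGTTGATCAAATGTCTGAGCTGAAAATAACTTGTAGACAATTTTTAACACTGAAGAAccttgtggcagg
Site on Snord22, chr19:8725865-8725992, plus strand: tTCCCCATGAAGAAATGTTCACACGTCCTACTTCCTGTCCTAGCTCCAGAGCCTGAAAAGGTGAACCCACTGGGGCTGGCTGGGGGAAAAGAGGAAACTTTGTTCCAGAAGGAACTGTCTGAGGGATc
Site on Snora44, chr4:132309939-132310073, plus strand: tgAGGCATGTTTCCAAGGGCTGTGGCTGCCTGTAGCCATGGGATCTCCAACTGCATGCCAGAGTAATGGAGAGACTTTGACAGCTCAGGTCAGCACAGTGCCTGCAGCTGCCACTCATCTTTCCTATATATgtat

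**Figure D3:**
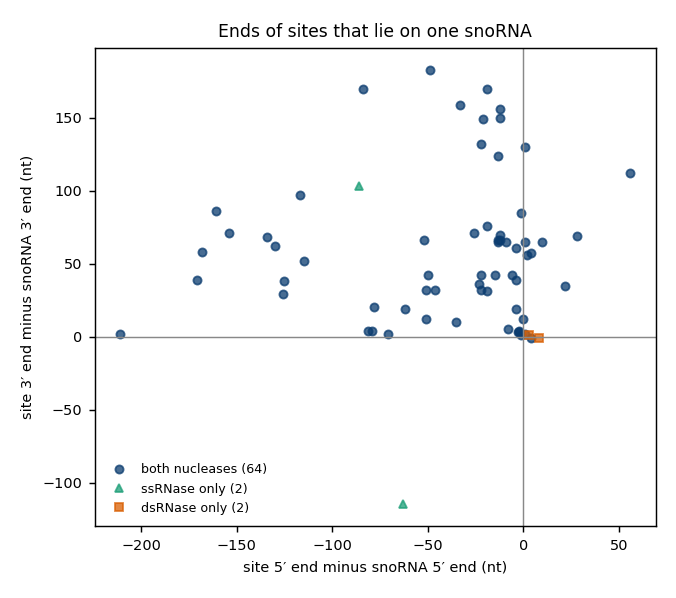
Offsets of the 68 PPSs that lie on exactly 1 embedded snoRNA (x axis: 5′ end of the PPS minus 5′ end of the snoRNA, y axis: the same for the 3′ ends, in nt along the transcribed strand), marked by the nucleases that support them. Most points lie left of and above the lines at 0, where the PPS reaches past both ends, and 7 PPSs lie within 5 nt of both lines.

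Coverage of snoRNA loci by PPSs was then compared with other hosts. PPSs touched 25 of 27 loci in the 7 genes on all 3 days (92.6%, Wilson 95% interval 76.6 to 97.9). Among loci in protein-coding hosts, 192 of 363 did (52.9%, 47.8 to 58.0), among loci in other noncoding hosts 30 of 291 (10.3%, 7.32 to 14.3), and among loci outside any host 26 of 848 (3.07%, 2.10 to 4.45). The interval of the 7 genes does not overlap the others, but these intervals cover counting error only. Loci of 1 host share a transcript and at times a PPS, so that they are not independent. Gas5 and Snhg1 alone hold 9 and 8 of the 27 loci. The annotation counts many predicted copies outside these genes, and how many of those are transcribed in MEL cells was not tested. By class, 20 of 20 C/D loci (100%, 83.9 to 100) of the 7 genes were touched on all 3 days. Of their H/ACA loci, 4 of 6 were (66.7%, 29.9993 to 90.3), and Snora73a and Snora73b were the 2 without. These 2 intervals overlap. Among all other annotated loci, 91 of 348 C/D loci were touched on all 3 days (26.1%, 21.8 to 31.009). For H/ACA loci it was 110 of 746 (14.7%, 12.4 to 17.5). The higher share of C/D loci was thus also found outside the 7 genes.

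Exonic coverage, the percent of exonic bases of a gene that lay in a PPS, had a mean above the median of all genes in each of the 7. Over the 6 cultures it was 49.001% ± 11.3 (SD, n = 6) in Gas5, 39.1% ± 11.9 in Snhg1, 28.6% ± 11.4 in Snhg5, 27.4% ± 14.5 in Snhg3, 24.7% ± 2.79 in Snhg12, 20.3% ± 11.6 in Snhg8 and 19.997% ± 3.67 in Snhg6. The median of the 10573 genes with any exonic PPS was 4.63%, and Gas5 ranked 47th, Snhg1 99th and Snhg6, the lowest of the 7, 714th among them. These levels include PPSs that lie on a snoRNA and reach into an exon. With only PPSs that touched no snoRNA, a count chosen after seeing the data, the mean was 30.2% in Gas5 and 6.39% in Snhg1, against 27.4% in Snhg3, 24.2% in Snhg5, 19.997% in Snhg6, 19.03% in Snhg12 and 13.5% in Snhg8. Snhg1 thus moved from the second to the lowest place. This count drops each PPS on a snoRNA whole, with any exonic calls merged into it. With all PPSs counted, no neighbours in the order differed by more than the larger of their SDs, which include the differences between days.

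Exonic coverage was compared between days to see how the host RNAs changed during differentiation. With 2 replicates a day the smallest p of a two-sided exact permutation test is 0.333, so no test was made, and "fell" and "rose" are used where both replicates of the later day lay outside both of the earlier day. From day 0 to day 4 exonic coverage fell in 4 of the 7 genes, Gas5, Snhg1, Snhg3 and Snhg5, while 24.4% of all 10573 genes fell by this rule. It rose in 1, Snhg8, while 29.9% of all genes rose. A gene with no coverage in a day 0 replicate cannot fall from day 0 by this rule. The median at day 0 was 4.31% over all genes and 42.7% over the 7, so that the background is not matched for starting level. From day 0 to day 2 the same 4 genes fell (background 29.5%) and the same 1 rose (background 21.3%). From day 2 to day 4, Gas5, Snhg1 and Snhg8 rose (background 32.8%) and Snhg5 and Snhg12 fell (background 18.6%). With only PPSs off the snoRNAs, 1 gene rose in this last step, and Snhg1 (-3.35 points) and Snhg8 (-9.19 points) turned direction. With ssRNase calls alone 1 gene rose and Snhg8 changed by -2.57 points. With exons of all transcripts or with dsRNase calls alone 0 genes fell, and Snhg12 turned to 2.72 and 6.26 points. The comparisons share the day 0, day 2 or day 4 samples and are not independent.

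Snhg3, the host of the U17 RNAs, held 45.1% exonic coverage in both day 0 replicates, 21.2% and 11.4% at day 2, and 25.8% and 16.2% at day 4. Each later replicate lay below each day 0 replicate, and the means differed by -28.8 points at day 2 and -24.1 points at day 4. Only 71 of the 10573 genes had a lower change from day 0 to day 4 than Snhg3. The median of these genes at day 0 was 4.31%, and a gene at or below this level could not fall as far. The rank thus depends on the high starting level of Snhg3. The PPS with the highest score, 222 nt long at day 0, lay at chr4:132352072-132352293 and merged 8 calls of all 4 call sets. At day 2 an 83-nt PPS with 2 calls remained there, and at day 4 a 45-nt PPS with 1 call.

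Snhg5 held 43.2% and 42.2% at day 0, 21.8% and 26.8% at day 2, and 21.1% and 16.5% at day 4. It fell by 18.4 points to day 2 and, less firmly, fell by 5.55 points from there to day 4. The later step was -2.71 points with exons of all transcripts and -0.335 points with dsRNase calls alone, with overlap in both, and -0.574 points with PPSs of both replicates only. The earlier step was -6.70 points with ssRNase calls alone, with overlap. The PPS near the gene start remained on all 3 days (197 nt at day 0, and separate PPSs of 60 and 111 nt at day 2 and of 48 and 106 nt at day 4). PPSs in the second and in the last exonic blocks were found at day 0 and not at day 4.

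Gas5 held 62.7% in both day 0 replicates, 35.3% and 42.1% at day 2, and 46.2% and 45.0% at day 4. Snhg1 held 52.7% in both day 0 replicates, 29.9% and 23.2% at day 2, and 38.1% in both replicates at day 4. With all PPSs counted, day 0 was the highest and day 2 the lowest in both genes, with no overlap between days. In both genes, however, PPSs on snoRNAs reached into exons. When only PPSs that touched no snoRNA were counted, exonic coverage of Gas5 was 31.3% in both replicates at day 0, 21.9% and 28.7% at day 2, and 34.5% and 33.4% at day 4. That of Snhg1 was 0 in both replicates at day 0, 14.6% and 7.91% at day 2, and 7.91% in both replicates at day 4, so that the order of its days was turned, with day 0 the lowest and day 2 the highest by the mean. The change from day 0 to day 4 thus turned to 2.70 points in Gas5 and 7.91 points in Snhg1. This count drops whole PPSs, so that exonic calls merged with a call on a snoRNA are lost too. In Snhg1, a 304-nt PPS on Gm24452 at day 0 took in a stretch that was a separate 68-nt exonic PPS at day 2. The part of merging in the turned directions was not tested. The fall of Snhg5 was larger in the same count (-29.95 points). In Snhg3 this count cannot differ (-24.1 points in both), because 0 of its 16 PPSs touched a snoRNA. With dsRNase calls alone the day 4 replicates of Gas5 and Snhg1 overlapped those of day 0, with changes of -6.46 and -5.83 points.

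Snhg8 held 19.5% and 0 at day 0, 20.03% in both replicates at day 2, and 34.9% and 27.5% at day 4. The day 2 values exceeded the higher day 0 value by 0.497 points. At day 4 the 356-nt PPS over Snora24 reached into the exon upstream of it. Without PPSs on the snoRNA, day 4 replicates held 14.6% and 7.12%, between the 2 day 0 replicates. Snhg6 (23.5% and 19.8% at day 0, 22.6% and 17.6% at day 4) and Snhg12 (21.7% and 29.2% at day 0, 22.3% and 23.5% at day 4) overlapped between day 0 and day 4. At day 2 Snhg6 held 14.0% and 22.5% and Snhg12 25.7% in both replicates.

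**Figure D4:**
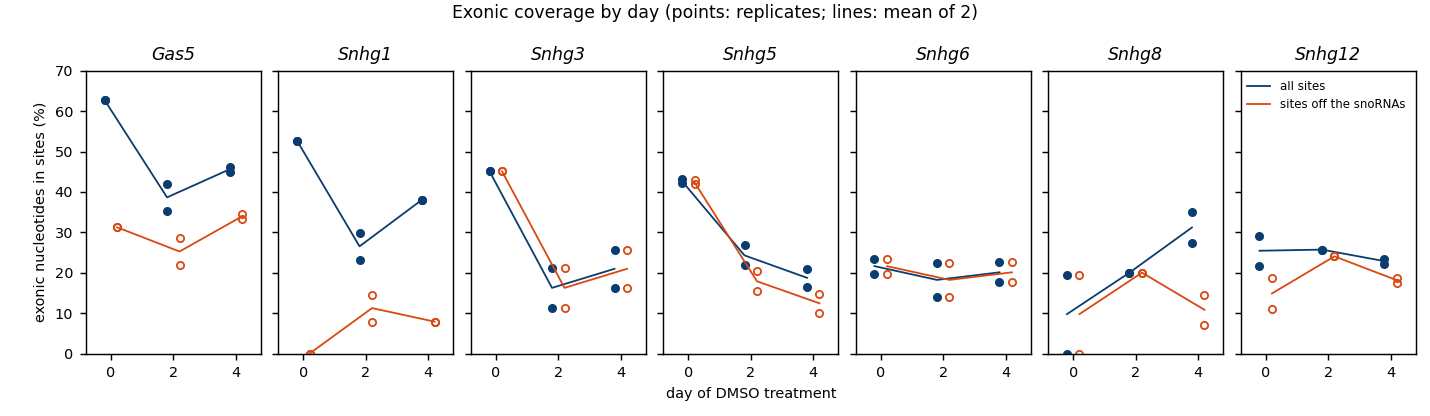
Percent of exonic nucleotides in PPSs by day for the 7 genes; filled points count all PPSs, open points only PPSs that touch no snoRNA, and each point is a replicate, with lines through the mean of 2. The lines of Gas5 and Snhg1 differ between the 2 counts. Snhg5 (42.7% to 18.8% with all PPSs) goes down from day 0 to day 4 in both. So does Snhg3 (45.1% to 20.98%), whose 2 counts are the same because no PPS touched its snoRNAs.

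Snhg6 gave the steadiest single exonic site. A 54-nt PPS at chr1:9942721-9942774 (minus strand) had the same ends at day 0 and day 2 and ended 2 nt further downstream, at chr1:9942719-9942774, at day 4. It was the only one of the 193 PPSs that recurred on all 3 days with both ends within 5 nt. All of its calls came from ssRNase, from replicate 2 at day 0 and from both replicates at day 2 and day 4. Its sequence is shown because these ends recurred, in lower case throughout.
Snhg6 exonic site: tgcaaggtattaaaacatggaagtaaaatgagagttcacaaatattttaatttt

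The nucleases differed in the exons. In 3 of the 7 genes, Gas5, Snhg6 and Snhg12, dsRNase call sets covered less of the exons than the ssRNase call sets of the same culture in 6 of 6 cultures, while 6.11% of all genes with an exonic PPS did so. In 0 of the 7 genes was dsRNase higher in 6 of 6 cultures, against a background of 4.1%. The contrast was widest in Snhg6, with 19.1% ± 4.31 for ssRNase and 1.56% ± 3.81 for dsRNase (SD, n = 6), where only day 0 replicate 2 had any dsRNase exonic call. In Snhg12 the values were 23.9% ± 3.71 and 11.8% ± 8.78, and in Gas5 45.6% ± 12.5 and 34.4% ± 9.63. Snhg1 and Snhg3 were lower with dsRNase in 5 cultures and equal in 1, Snhg5 was lower in 5 and higher in 1, and Snhg8 was lower in 4 and higher in 1. The call in Gas5 and Snhg12 needed the pairing within cultures, since without it only Snhg6 kept all dsRNase values under all ssRNase values. Snhg12 also lost its call with scores of 10 or more, with PPSs of both replicates and off the snoRNAs, and Gas5 with exons of all transcripts, which left 2 genes each time. The dsRNase call sets were also smaller than the ssRNase call sets over the whole lists in 5 of 6 cultures, and the part of this in the difference was not tested. A gene without ssRNase exonic coverage in 1 of the 6 cultures cannot be called lower with dsRNase. The background of 6.11% is not matched to the 7 genes in coverage (median 4.63% over all genes). By the same rule, 2 of 4 other noncoding snoRNA hosts with an exonic PPS were lower with dsRNase and 0 higher. Of 184 protein-coding snoRNA hosts, 19 were lower and 19 higher.

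On the embedded snoRNAs the same rule could show little, because 13 of the 27 loci held a PPS in 12 of 12 call sets and 2 held none. It called 0 of the 27 loci and 0 of the 322 loci in the genome (0%) in either direction, and nothing is read from these counts. More dsRNase than ssRNase call sets held a PPS on 6 loci, fewer on 6, and equal numbers on 15. In Snhg5, snoRNA coverage was 100% with both nucleases in every culture. In Gas5 it was 85.0% ± 16.7 for ssRNase and 93.7% ± 5.39 for dsRNase (SD, n = 6), higher with dsRNase in 3 cultures and lower in 3.

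**Figure D5:**
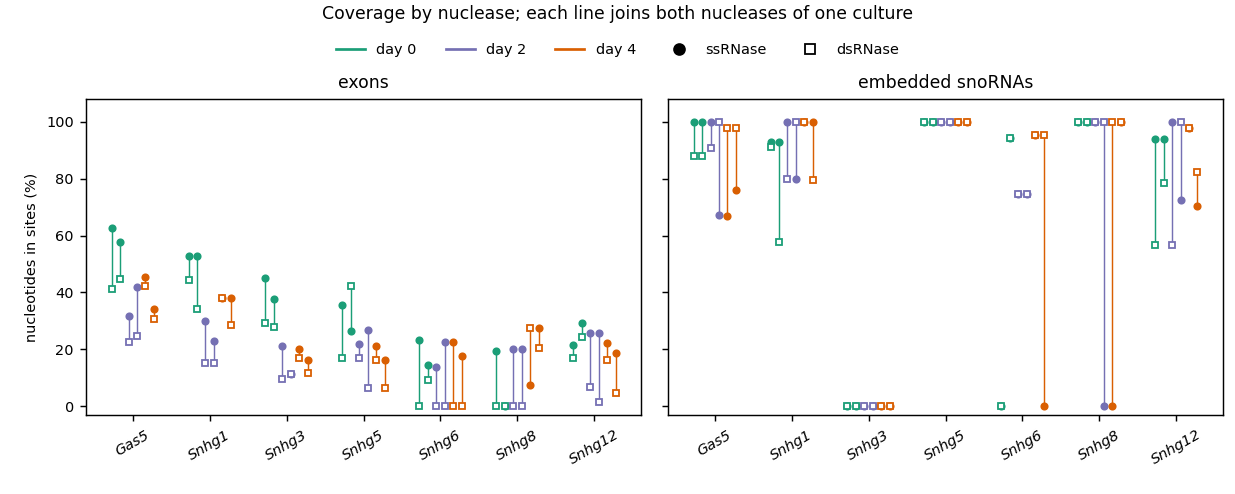
Percent of nucleotides in PPSs for exons (left) and embedded snoRNAs (right) of the 7 genes, with ssRNase as circles and dsRNase as squares; each line joins the 2 nucleases of a culture and colours mark the day. In exons of Gas5, Snhg6 and Snhg12 all squares lie under their circles, and snoRNAs of Snhg5 lie at 100% and those of Snhg3 at 0 with both nucleases.

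Intronic bases outside the snoRNAs were covered as well, and this coverage includes parts of snoRNA and exonic PPSs that reach into introns. In Snhg1 at day 4 it was 45.4% in both replicates, although 0 PPSs of that day lay in introns alone. Intronic coverage from PPSs off the snoRNAs was not computed. In Gas5, Snhg1 and Snhg12, intronic coverage exceeded exonic coverage in 12 of 12 call sets. In Gas5 it was 70.1% ± 1.09 (SD, n = 2) at day 0, against 52.5% ± 0.191 at day 2 and 57.5% ± 0.653 after 4 days. In Snhg3 the order was turned, with exons above introns in 12 of 12 call sets and intronic coverage of 2.93% ± 0.797 at day 0. Coverage of the gene starts was uneven. No PPS lay within the first 672 nt of Gas5 or the first 279 nt of Snhg1 on any day, whereas in Snhg5 a PPS began 42 to 67 nt and in Snhg6 2 to 51 nt from the annotated start.

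Related genes were counted by the same rule for day 4 against day 0, and the lists were drawn up with earlier results of these data known. Of 12 other noncoding snoRNA hosts, 8 were found in the annotation and 4 held an exonic PPS. Of those 4, 2 fell and 0 rose, Epb41l4aos with -39.8 points and Snhg15 with -17.9 points, and Snhg17 changed by 1.02 points. Their median change was -8.83 points, beside 0.0125 points over all genes tested and -14.6 points over the 7 genes. The median of the 7 genes was -6.46 points with dsRNase calls alone and turned to 1.08 points with only PPSs off the snoRNAs. Of the protein-coding snoRNA hosts, 55 of 184 rose (29.9%) and 63 fell (34.2%), with a median of -0.304 points. The largest changes among them were 55.3 points in Gm20661, 31.9 points in Ell2, an elongation factor of RNA polymerase II, and -25.5 points in 2410002F23Rik.

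Genes for the proteins that bind and assemble snoRNAs were examined in the same way. Of the box H/ACA core, 3 of 4 fell and 0 rose. The changes were -13.96 points in Nhp2, -12.4 in Dkc1 (dyskerin, the pseudouridine synthase) and -7.44 in Gar1. Gar1 held 14.7% in both day 0 replicates and 14.4% and 0 at day 4, so that 1 day 4 replicate was almost unchanged. Of the box C/D core, 1 of 4 fell, Nop58 with -6.63 points, while Fbl (fibrillarin, the methyltransferase) changed by -4.18 points and Nop56 by 3.70 points with overlap. Of the assembly factors, 4 of 9 fell, with -19.2 points in Znhit6 and -17.3 in Ruvbl1 the largest, and 1 rose, Rpap3 by 10.7 points. Of the nonsense-mediated decay factors, 3 of 10 rose, among them Upf2 by 14.1 and Smg6 by 6.27 points, and 1 fell, while Smg5 changed by -5.48 points with overlap. The median changes were -9.91 points in the H/ACA core, -3.91 in the C/D core, -1.69 in the assembly factors and 1.52 in the decay factors. These lists are small, and their counts are descriptions beside the background of 24.4% falling and 29.9% rising.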

How the data were processed

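The authors trimmed reads with cutadapt 1.2.1, collapsed them, aligned them to mm10 with TopHat2 2.0.10 (up to 10 alignments), collapsed PCR duplicates, and called PPSs at an FDR of 5% with a modified CSAR package that compares libraries digested with proteins present with those digested after protein removal. Calls were merged into 1 list per day. The deposited score of a PPS is the authors' enrichment value, with a lowest value of 5.4. Versions follow the submitters' processing notes. Groups were taken from sample titles, and the name field of each PPS gave its call sets.

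Coverage was computed here as the percent of bases in PPSs, per replicate from PPSs that named a call of it. Exons came from GENCODE release M21 transcripts not typed as retained introns, without exons that hold a whole snoRNA and without snoRNA bases. Overlapping snoRNA annotations were joined. Genes needed 200 exonic nt. RefSeq (GRCm38.p6, the same build) gave snoRNA products and sequences. Called changes are non-overlaps of 2 against 2 replicates, or 6 of 6 cultures between nucleases, paired within a culture. Named items were the 7 genes, their snoRNAs, their highest-scoring PPSs and the 3 largest changes of each list. The members and lists were chosen with earlier results of these data known. Not every marker gene examined is reported here. Shares carry Wilson 95% intervals. Alternatives were all lengths, scores of 10 or more, both replicates, other exon sets, either nuclease, a stricter snoRNA overlap and leaving out replicates. The functions were tested on simulated data. Python 3.11.15 and numpy 2.4.6 were used.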

Additional observations from a re-analysis of the deposited data

Results flagged for a closer look

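PPSs of 20 to 40 nt were left out of all comparisons, and 22 of them lay in the 7 genes, 7 of them from day 0, 14 from day 2 and 1 from day 4. The whole lists held 23782, 50088 and 30475 PPSs of this length on the same days, so that day 2 was the highest there too. They came up as a signal in data that the comparisons did not use.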

How the results depend on the processing

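Day comparisons rest on 2 replicates with shared PPS extents and unknown depth, and the causes of the following shifts were not tested. The median exonic change of the 7 genes from day 0 to day 4 (-14.6 points) was -16.98 with all lengths, -12.2 with exons of all transcripts, -9.83 with the transcript of most exons, -12.2 with ssRNase and -6.46 with dsRNase calls alone, and 1.08 with only PPSs off the snoRNAs, an alternative chosen after seeing the data, which turned Gas5 to 2.70 and Snhg1 to 7.91. Genes lower were then 2, and genes higher were 2 there, 2 with scores of 10 or more, 2 with PPSs of both replicates and 0 with ssRNase. From day 0 to day 2 (-18.4) the median was -14.2 with all transcripts, -6.70 with ssRNase and -3.40 off the snoRNAs (Snhg1 11.3). Genes higher were 0 with all lengths, all transcripts or dsRNase, 2 with both replicates and 3 off the snoRNAs. From day 2 to day 4 (4.72) it was 7.24 with scores of 10 or more, 9.26 with most exons, 1.88 with ssRNase and -3.35 off the snoRNAs (Snhg1 -3.35, Snhg8 -9.19). Genes higher were 5 with both replicates, 1 with ssRNase and 1 off the snoRNAs, and genes lower 0 with all transcripts or dsRNase. Snhg12 turned to 2.72 with all transcripts and 6.26 with dsRNase, and Snhg8 to -2.57 with ssRNase.

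Leaving out replicates gave -14.6 to -14.6, -20.9 to -15.9 and -0.0605 to 7.52 points for the 3 medians, the lowest of the last without day 4 replicate 1. Genes lower ranged over 4 to 5, 4 to 5 and 2 to 2, and genes higher over 1 to 2, 1 to 2 and 3 to 5. Without day 0 replicate 2, 2 genes were higher at day 4 and 2 at day 2. Replicate numbers did not pair the days (r of deviations -0.0563, -0.0279 and 0.000817 across 10573 genes). With the replicate block, which cannot move a mean difference (-14.6 points), genes lower from day 0 to day 4 were 5, with Snhg6 added, and genes higher from day 2 to day 4 were 4, with Snhg3 added. Without the block, nuclease calls in exons dropped from 3 genes to 1. The snoRNA share of PPSs (37.3%) was 48% with scores of 10 or more, 53.8% with both replicates, 53.8% with dsRNase and 17.1% where most of a PPS had to lie on the snoRNA, a rule that 6 snoRNAs, in place of 25, met on all 3 days.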
